A study of Mus musculus with 9 samples.

Results

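The genes described here are 7 genes of the creatine and calcium cycles, the ATP-consuming pathways of brown fat that can make heat beside uncoupling protein 1. They were chosen by name, as Ckb, Gatm, Gamt, Slc6a8 and Alpl for creatine and Atp2a2 and Ryr2 for calcium, and all 7 were among the 16937 genes listed in the deposited tables. Each was listed in all 3 tables, so none was lost to a filter on low values. RNA was sequenced from brown adipose tissue (BAT) of adult mice in 3 groups of 3 libraries. WT RT were wild type mice kept at room temperature (23 °C), and WT Cold were wild type mice kept at 4 °C for 8 h. GCN2 KO Cold were whole-body Gcn2 knockouts on a C57Bl/6J background, kept at 4 °C for the same 8 h. GCN2 is a kinase that senses amino acid shortage, and its gene carries the symbol Eif2ak4. Per the study, each group held male and female mice, but the sex of a library is not in the labels. Libraries of a group are lettered A, B and C. WT RT libraries carry a different code series from all cold libraries, so cold and a difference in library handling cannot be told apart. No knockouts at room temperature are among these libraries, so the response of these mRNAs to cold cannot be compared between genotypes.

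In the creatine cycle, creatine kinase B (Ckb) charges creatine with the phosphate of ATP, and the phosphatase Alpl can release it again, so that ATP is spent without other work. Creatine itself is made by Gatm and Gamt in consecutive steps or taken up by the transporter Slc6a8. In the calcium cycle, the pump SERCA2 (Atp2a2) spends ATP to move calcium into the endoplasmic reticulum (ER), and ryanodine receptor 2 (Ryr2) lets it out. All values below are mRNA levels, which say nothing on enzyme activity, phosphocreatine or calcium flux.

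The 9 libraries held 27058799 to 30768064 reads on listed genes, so depth differed little between groups. Eif2ak4 was not lower in the libraries labelled as GCN2 KO Cold, at 347, 371 and 350.0 normalized counts against 171, 225 and 231 in WT Cold (adjusted p = 0.0932 with limma, 0.0028 with DESeq2). A normalized count is a read count divided by the size factor of its library, set by the authors for each table of 2 groups, so that 1 library has other values in another table. The counts are per gene, so whether a part of the transcript is missing was not seen, and these libraries are named by their label throughout. For 1 sample of this group the title names both GCN2 KO and WT, and its genotype label, GCN2 KO, was used. Markers of other cell types also differed between groups. The summed level of 20 muscle genes was 2848 to 3447 CPM (reads scaled to a common library total) in WT RT, 2691 to 4508 in WT Cold and 376 to 1521 in the libraries labelled as GCN2 KO Cold. Summed markers of brown adipocytes, 12 genes that include Ucp1, were 18871 to 20800 CPM, 25355 to 27362 CPM and 29985 to 30377 CPM in the same order. Ucp1 alone had means of 4543, 8609 and 9578 CPM. By the limma test described below, 5 of the 12 rose in WT Cold against WT RT, Plin1 fell and 6 did not pass. Over all genes 13.6% rose and 14.1% fell. The sum of 8 macrophage markers was 386 to 583 CPM, 209 to 309.9 CPM and 154 to 230.0 CPM in the same order. The sum of 6 listed fibroblast and bone-like markers was 616 to 749, 515 to 608 and 350.1 to 469 CPM in the same order, and that of 8 endothelial markers 653 to 736, 783 to 904 and 612 to 729 CPM. The part of these cell types in the results was not tested. No listed marker of these lists was at 0 in every library of a group. In bulk tissue, fewer cells of a type and less RNA per cell cannot be told apart.

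Cold was followed by a change in 3 of the 7 genes in wild type BAT. Ckb and Atp2a2 rose and Gatm fell, while Gamt, Slc6a8, Alpl and Ryr2 did not pass the test. A gene passed when its adjusted p was under 0.05 in a limma fit of the log2-transformed values (1 added to each), where Benjamini-Hochberg adjustment ran over all 16679 genes of the table. Over all genes 27.7% passed, 13.6% higher and 14.1% lower in WT Cold, so a count of 3 in 7 genes does not by itself set them apart. Only Ckb was also past an absolute log2 fold change of 1, against 8.14% of all genes. The normalized counts of 4 of the 7 did not overlap between groups (Ckb, Gatm, Slc6a8 and Atp2a2), beside 45.5% of all genes. Without WT Cold C, 5 of the 7 passed, Gamt and Slc6a8 besides these 3, and without WT Cold A, WT Cold B, WT RT A or WT RT B the count was 2, Gatm being lost.

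**Figure D1:**
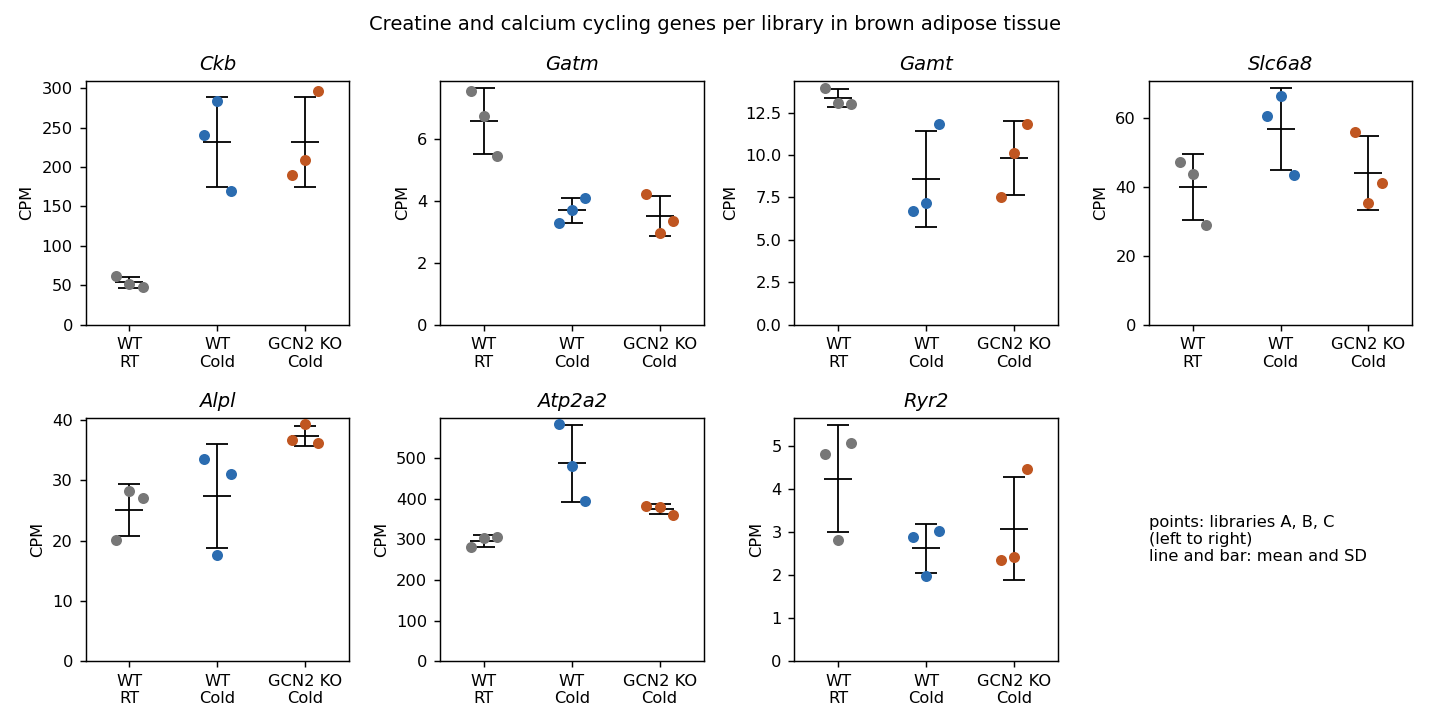
Level of each of the 7 genes, in CPM (linear axes from 0), in the 9 libraries. Points are libraries A, B and C of each group from left to right, and the black line and bar give the mean and SD of 3 libraries. Ckb separates WT RT from both cold groups with a wide gap, while Slc6a8 and Ryr2 overlap between WT RT and the libraries labelled as GCN2 KO Cold.

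Ckb, the kinase that charges creatine in the cytosol and in brown adipocyte mitochondria, had 1749, 1428 and 1423 normalized counts in the WT RT libraries. The WT Cold libraries had 7150, 8586 and 5306, each above every WT RT library. The means were 1533 ± 187 and 7014 ± 1645 (SD, n = 3), and the log2 fold change was 2.17 (SE 0.17, 95% interval 1.77 to 2.57, adjusted p = 0.0003 with limma), a 4.51-fold rise. Ckb ranked 80 from the top of the 16679 genes by log2 fold change. For comparison, Ucp1 rose by 1.02 on the log2 scale (adjusted p = 0.0034 with limma) in the same table.

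The other creatine kinases did not pass the test. Ckm, the muscle form, had 13356, 13934 and 8104 normalized counts in WT Cold and 10706, 9144 and 8437 in WT RT (log2 fold change 0.29, adjusted p = 0.324). The mitochondrial forms Ckmt1 and Ckmt2 had log2 fold changes of 1.02 and 0.48 (adjusted p = 0.0867 and 0.189). Levels of different genes can be set side by side per kb of transcript. Such levels, and all shares made from them, depend on the transcript length used. On this scale Ckb made up 17.3 ± 1.58% of the creatine kinase level in WT RT (SD, n = 3). Its share was 40.8 ± 3.01% in WT Cold and 61.4 ± 14.2% in the libraries labelled as GCN2 KO Cold. In the last group the shares of libraries A, B and C were 46.2%, 63.8% and 74.3%, and the summed muscle markers of the same libraries were 1521, 1161 and 376 CPM. Ckm, itself one of those markers, went from 57.1% and 36.5% in the wild type groups to 16.4%, and the part of muscle tissue in these shares was not tested.

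**Figure D2:**
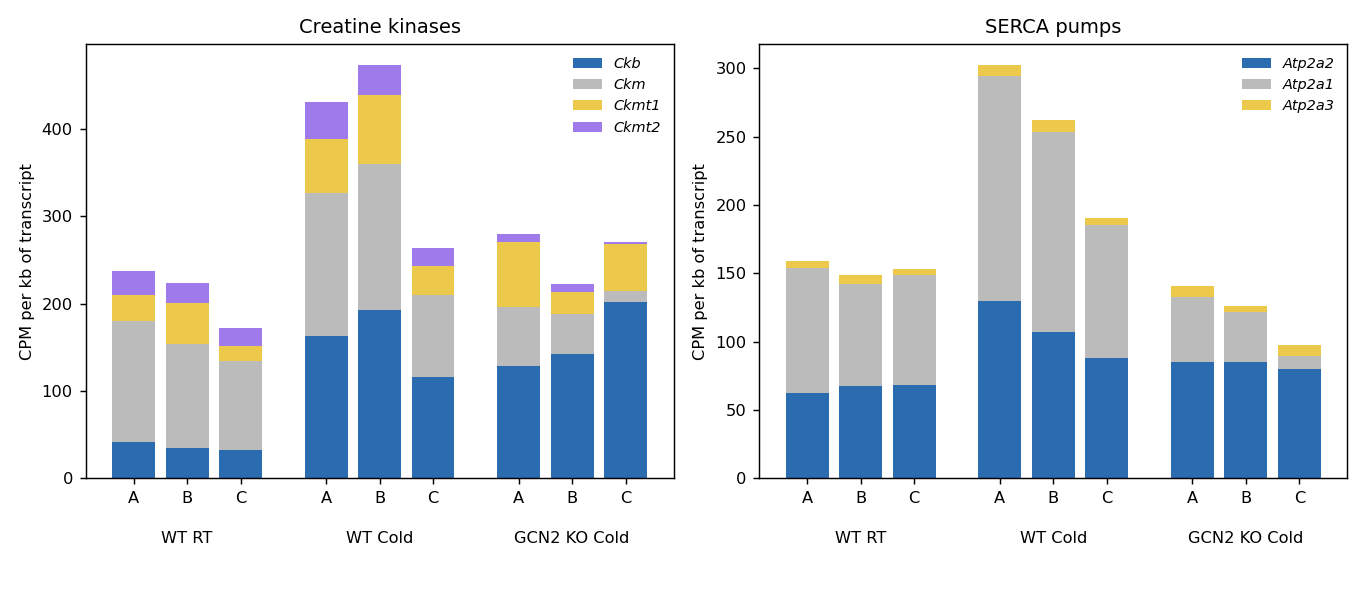
Creatine kinases (left) and SERCA pumps (right) in each library, in CPM per kb of the longest protein-coding transcript, stacked by gene. The blue Ckb block grows from WT RT to both cold groups, while the grey muscle forms Ckm and Atp2a1 are smallest in library C of the group labelled GCN2 KO Cold.

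Of the creatine supply genes among the 7, Gatm passed and Gamt and Slc6a8 did not. Gatm, which makes the creatine precursor guanidinoacetate from arginine and glycine, had 213, 189 and 163 normalized counts in WT RT. It had 97.6, 113 and 128 in WT Cold, below every WT RT library. The log2 fold change was -0.74 (SE 0.18, 95% interval -1.15 to -0.33, adjusted p = 0.0191 with limma), a 39.9% lower level. With 3 libraries a group this call was fragile, since leaving out WT Cold A, WT Cold B, WT RT A or WT RT B raised the adjusted p to 0.0638, 0.0581, 0.0703 and 0.0582.

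Gamt, which methylates that precursor to creatine, had 394, 365 and 391 normalized counts in WT RT. In WT Cold it had 199, 218 and 369, so libraries A and B were lower and library C lay within the WT RT range. The log2 fold change was -0.60 (SE 0.22, adjusted p = 0.0834 with limma). Without WT Cold C it was -0.87 (adjusted p = 0.0019), and under CPM scaling it was -0.68 (adjusted p = 0.048). Without WT Cold A it was -0.43 (adjusted p = 0.225) and without WT Cold B -0.50 (adjusted p = 0.226), and 3 of 14 alternatives passed. WT Cold C was also the library with the fewest muscle markers of its group, 2691 CPM against 4508 and 4019 CPM in A and B. The part of muscle in the Gamt value was not tested.

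Slc6a8, the transporter that brings creatine into the cell, had 1330, 1219 and 869.8 normalized counts in WT RT and 1801, 2010 and 1355 in WT Cold. The groups did not overlap, though the lowest WT Cold and the highest WT RT library were close. The log2 fold change of 0.60 (SE 0.19, 95% interval 0.15 to 1.05) just missed the threshold in limma (adjusted p = 0.053). It was past it with DESeq2 (adjusted p = 0.0128, where 29.5% of all genes and 4 of the 7 passed) and without WT Cold C (0.76, adjusted p = 0.0118), but in no other of the 14 alternatives run. Among these, CPM scaling gave 0.51 (adjusted p = 0.115), and on the CPM scale WT RT A at 47.1 lay above WT Cold C at 43.5. Leaving out WT Cold B gave the largest adjusted p, 0.164.

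Alpl, the phosphatase that can dephosphorylate phosphocreatine, overlapped between the wild type groups. It had 567, 785 and 810 normalized counts in WT RT and 994, 533 and 969 in WT Cold (log2 fold change 0.17, 95% interval -0.42 to 0.76, adjusted p = 0.646 with limma). WT Cold B, at 533, was the lowest of the 6 libraries, whereas A and C were the highest.

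Among 9 tested genes of creatine kinase and supply that were fixed as a list beside the 7, 3 rose and 0 fell in WT Cold, and the list median was 0.48 on the log2 scale against 0.00 over all genes. Of all genes 27.7% passed and 13.6% rose, so the count does not set the list apart. These were Slc7a1, a carrier of arginine (0.99, adjusted p = 0.0046), Phospho1, a phosphatase of small phosphate esters (0.88, adjusted p = 0.016), and Mat2a, which makes the methyl donor used by Gamt (0.67, adjusted p = 0.0026), all with limma. For Phospho1 the WT RT libraries had 2132, 3667 and 3279 normalized counts and the WT Cold libraries 6142, 4587 and 5675. Per kb, Alpl stood at 0.184 ± 0.0199 of the Phospho1 level in WT RT, 0.113 ± 0.0222 in WT Cold and 0.176 ± 0.0108 in the libraries labelled as GCN2 KO Cold (SD, n = 3). Without WT Cold C 6 genes of the list rose, and without WT Cold A 2 rose. The pyrophosphate exporter gene Ankh, listed as Ank, fell by 1.37 on the log2 scale (adjusted p = 0.0005 with limma).

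Atp2a2, the SERCA2 pump gene, had 7904, 8454 and 9186 normalized counts in WT RT. The WT Cold libraries had 17362, 14570 and 12324, all higher than every WT RT library. The means were 8515 ± 643 and 14752 ± 2524 (SD, n = 3) and the log2 fold change was 0.78 (SE 0.13, 95% interval 0.49 to 1.08, adjusted p = 0.0042 with limma), a 1.72-fold rise. Within WT Cold the order of Atp2a2, A over B over C, was also the order of the muscle markers. In WT RT the orders were opposite, with muscle sums of 3447, 3118 and 2848 CPM and Atp2a2 at 280.1, 303 and 306 CPM in A, B and C. Of 20 muscle markers, 6 rose and 0 fell in WT Cold (list median 0.31 on the log2 scale) and 14 did not pass, beside 13.6% of all genes that rose. The largest changes were Xirp1 (2.64, adjusted p = 0.0009), Csrp3 (1.35, adjusted p = 0.0011) and Tnnc1 (1.03, adjusted p = 0.0081), all with limma. Tnnc1 is a slow-fibre gene, and SERCA2 is the pump of slow fibres too. In the libraries labelled as GCN2 KO Cold, muscle markers were below every WT RT library and Atp2a2 was above every WT RT library. The part of muscle in the Atp2a2 values was not tested.

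Atp2a1, the SERCA1 pump of fast muscle fibres, rose by nearly the same amount in WT Cold (0.78, adjusted p = 0.0147 with limma). As a share of the summed SERCA level per kb, Atp2a2 was 43.1 ± 3.26% in WT RT, 43.4 ± 2.69% in WT Cold and 70.1 ± 11.2% in the libraries labelled as GCN2 KO Cold. There the shares of A, B and C were 60.6%, 67.2% and 82.4%, in the reverse order of their muscle sums. Atp2a1 was at 31.4 ± 19.6 CPM per kb in these libraries against 136 ± 34.8 in WT Cold, and Atp2a2 at 83.5 ± 2.82 against 108 ± 21.1. Of 12 tested SERCA partners and ER calcium store genes, 3 rose and 0 fell in WT Cold (list median 0.41 on the log2 scale), beside 27.7% of all genes that passed and 13.6% that rose. Besides Atp2a1 these were Asph (0.69, adjusted p = 0.0044) and Srl (0.42, adjusted p = 0.0494), which encode proteins of the calcium store and its junctions. The count was 1 when WT Cold B or WT RT B was left out and 6 when WT Cold C was left out. Sarcolipin (Sln) and phospholamban (Pln), small proteins that restrain SERCA, had log2 fold changes of 0.96 (adjusted p = 0.0589) and -0.07 (adjusted p = 0.878), and the luminal calcium binder Calr had -0.04 (adjusted p = 0.721).

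Ryr2 was the lowest of the 7 genes. It had 136, 78.8 and 153 normalized counts in WT RT and 86.3, 60.0 and 94.2 in WT Cold, so the groups overlapped (log2 fold change -0.58, SE 0.30, adjusted p = 0.188 with limma). Ryr1, the muscle form, had a log2 fold change of 0.15 (adjusted p = 0.643) and Ryr3 of 0.25 (adjusted p = 0.624). Ryr2 made up 8.58 ± 2.55% of the summed ryanodine receptor level per kb in WT RT and 5.58 ± 2.69% in WT Cold. In the libraries labelled as GCN2 KO Cold it was 23.6 ± 19.2%, with 45.6% in library C. In this group Ryr1 was at 0.701 ± 0.412 CPM per kb against 2.63 ± 0.382 in WT RT, and muscle markers were lowest as well. Ryr2 was at 0.183 ± 0.0715 against 0.253 ± 0.0735 CPM per kb, so its level was not above that of WT RT. Ryr2 is also counted as a cardiac marker, and of the 7 cardiac markers Myl7, Nppa and Tnni3 were not listed. Of the 4 listed, Myh6 (1.54, adjusted p = 0.0332) and Myl4 (1.05, adjusted p = 0.0038 with limma) rose in WT Cold, beside 13.6% of all genes. Actc1 and Ryr2 did not pass. Myh6 was near the floor, at 0.251 ± 0.125 CPM in WT RT and 0.717 ± 0.139 in WT Cold (SD, n = 3). The summed level of the listed cardiac markers overlapped, at 12.1 to 21.4 CPM in WT RT and 15.5 to 23.3 CPM in WT Cold.

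Of 20 tested release genes other than Ryr2, 7 fell and 0 rose in WT Cold (list median -0.21 on the log2 scale), beside 14.1% of all genes lower and 13.6% higher. Without WT Cold C 6 fell and 2 rose, and without WT RT A or WT RT B 5 fell and 1 rose. The inositol trisphosphate receptor gene Itpr2 went from 2982, 2421 and 3159 normalized counts in WT RT to 1581, 1510 and 1476 (log2 fold change -0.90, adjusted p = 0.0013), and Itpr1 fell by 0.47 on the log2 scale (adjusted p = 0.009). Itpr3 had a log2 fold change of 0.39 (adjusted p = 0.113). Camk2b, a calcium-dependent kinase subunit, fell by 1.15 (adjusted p = 0.0014) and Calm3, a calmodulin gene, by 0.58 (adjusted p = 0.0045), all with limma. Per kb, Itpr1 and Itpr2 together with Ryr1 held most of the summed level of the release channels, at 47.6%, 34.7% and 10.8% in WT RT, while Ryr2 held 1.03%.

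Calcium genes of the plasma membrane and the mitochondria that passed went in both directions. Of 17 tested plasma membrane and store-operated entry genes, 2 rose and 1 fell in WT Cold (list median 0.11), beside 13.6% and 14.1% of all genes. The calcium pump gene Atp2b1 rose by 0.27 (adjusted p = 0.0472) and Saraf, which limits store-operated entry, by 0.38 (adjusted p = 0.0055), and the sodium-calcium exchanger gene Slc8a1 fell by 0.89 (adjusted p = 0.0291). Of 10 mitochondrial calcium genes, 2 rose and 2 fell, with a median of -0.05. Mcur1 rose by 0.48 (adjusted p = 0.0076), Micu3 rose by 0.44 (adjusted p = 0.0468) and Micu2, a gatekeeper of the uniporter, fell by 0.64 (adjusted p = 0.0039), all with limma. Without WT Cold A, WT Cold B, WT RT A or WT RT B the plasma membrane count was 1 and the mitochondrial count 2.

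**Figure D3:**
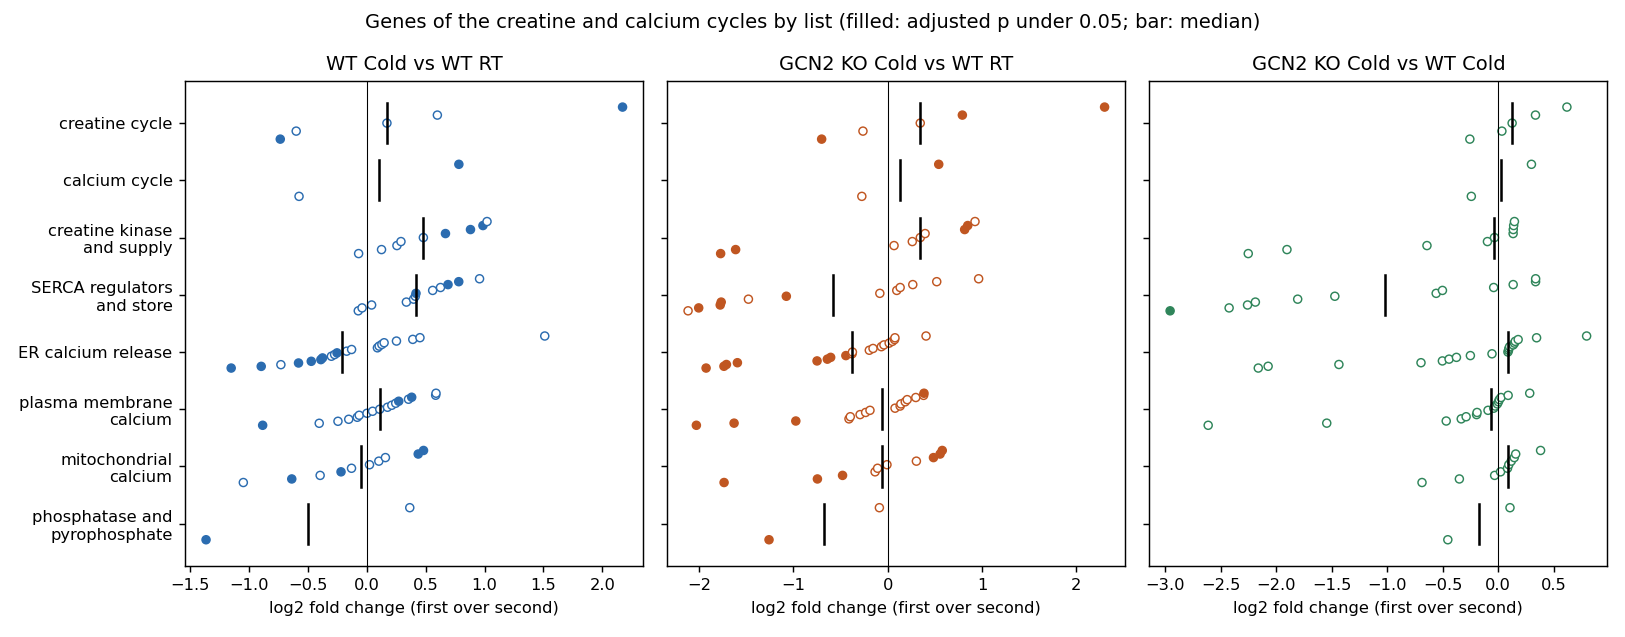
Log2 fold change (first group over second, log2 axis) of every tested gene in the 7 genes and 6 further lists, in 3 comparisons. Filled points passed the test at an adjusted p under 0.05 and the black bar is the median of each list. Filled release genes lie left of 0 in WT Cold and in the libraries labelled as GCN2 KO Cold against WT RT, and Sln is the only filled point of these lists in the right panel.

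Between genotypes in the cold, 0 of the 7 genes passed the test, beside 0.405% of 16312 genes. With DESeq2, by which 3.22% of all genes passed, and with edgeR, by which 0.27% passed, 0 of 7 passed as well. With limma, 0.257% of all genes were also past an absolute log2 fold change of 1. At an unadjusted p under 0.05 there was 1 of 7, Alpl, against 15.3% of all genes. This does not show that the genotypes are alike, and the 95% intervals give what the data allow. For Ckb the log2 fold change of the libraries labelled as GCN2 KO Cold over WT Cold was 0.13 (-0.38 to 0.63). For Gatm it was 0.03 (-0.44 to 0.51), for Gamt 0.34 (-0.29 to 0.97) and for Slc6a8 -0.26 (-0.72 to 0.21). For Atp2a2 it was -0.24 (-0.53 to 0.04) and for Ryr2 0.30 (-0.43 to 1.03). Every interval but that of Alpl included 0.

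Alpl had 1069, 1152 and 1070 normalized counts in the libraries labelled as GCN2 KO Cold and 884, 477 and 861 in WT Cold. It was the only one of the 7 whose groups did not overlap, beside 22% of all genes. The log2 fold change was 0.62 (SE 0.23, 95% interval 0.09 to 1.15, adjusted p = 0.256 with limma, 0.159 with DESeq2). WT Cold B, at 477, was far below the other 5 libraries, and without it the log2 fold change was 0.33 (adjusted p = 0.300).

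Atp2a2 had 11175, 11172 and 10657 normalized counts in the libraries labelled as GCN2 KO Cold against 15429, 13036 and 10947 in WT Cold. WT Cold C fell within the range of the knockout-labelled libraries. Ckb had 5547, 6137 and 8774 against 6354, 7682 and 4713, and the ranges overlapped.

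Of the further lists, Sln was the only gene that passed in this comparison in limma as reported above. It had 20.04, 14.3 and 7.66 normalized counts in the libraries labelled as GCN2 KO Cold and 128, 99.0 and 100.1 in WT Cold (log2 fold change -2.96, adjusted p = 0.0335 with limma). Over the other limma fits on 2 groups, 2 genes of its list passed with a pseudocount of 10 or with CPM scaling, and 0 without the mean-variance trend. The call was also lost without WT Cold A, WT Cold B, WT Cold C, GCN2 KO Cold B or GCN2 KO Cold C. Sln is expressed in muscle fibres. Of 20 muscle markers 5 passed as lower, beside 0.227% of all genes. The log2 fold changes of all 20 lay between -3.67 and -1.33 (list median -2.04). The part of muscle in the Sln value was not tested. Ckmt2 (-2.25, adjusted p = 0.141), Atp2a1 (-2.26, adjusted p = 0.142), Ryr1 (-2.07, adjusted p = 0.141) and Ckm (-1.90, adjusted p = 0.186) did not pass with limma. With DESeq2, by which 3.22% of all genes passed, the creatine kinase and supply list had 2 calls (Ckmt2 and Slc7a1), the SERCA and store list 3, the release list 1, the plasma membrane list 2 and the mitochondrial list 1. With all 3 groups in the limma fit, run on CPM, these counts were 2, 4, 3, 2 and 0. Beside them, 416 of the 16006 genes listed in all 3 tables passed.

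**Figure D4:**
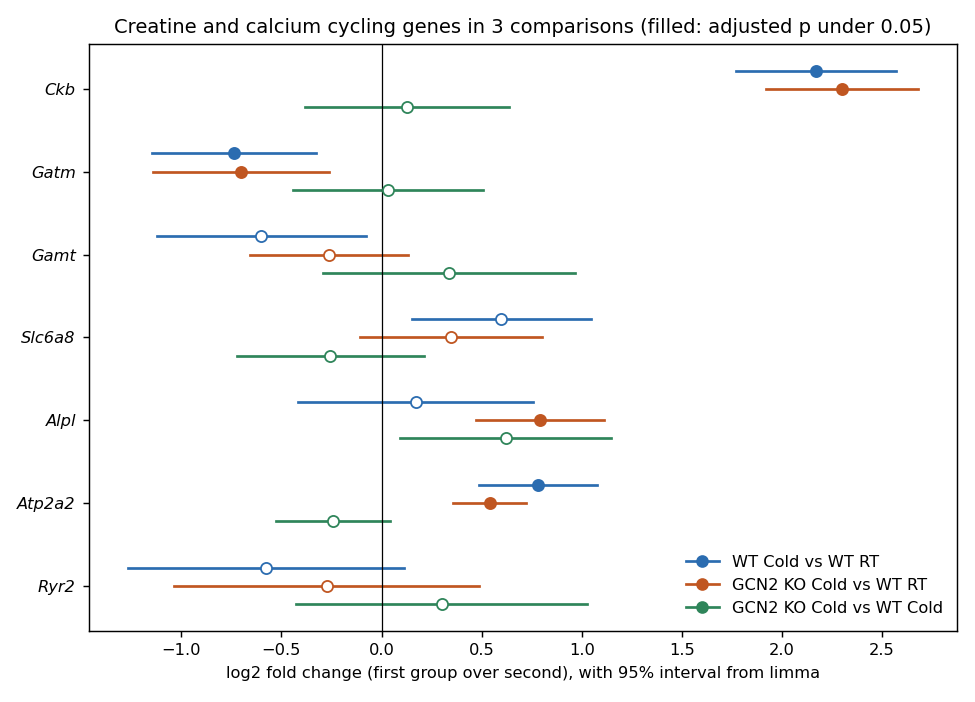
Log2 fold change of each of the 7 genes (points) with its 95% interval from limma (lines) in 3 comparisons, where filled points passed at an adjusted p under 0.05. Ckb stands at 2.17 and 2.30 against WT RT, and of the green intervals, GCN2 KO Cold over WT Cold, that of Alpl alone lies above 0.

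Against WT RT, 4 of the 7 genes passed in the libraries labelled as GCN2 KO Cold, 3 higher and 1 lower, beside 34.2% of 16560 genes (16.4% higher and 17.8% lower). This comparison shares the WT RT libraries with the wild type one and changes both temperature and genotype. Ckb was again the only one past an absolute log2 fold change of 1, beside 10.6% of all genes. The groups of 4 genes did not overlap, beside 49.2% of all genes. Ckb had 5878, 6536 and 9262 normalized counts against 1648, 1347 and 1342 (log2 fold change 2.30, SE 0.17, adjusted p = 0.0001 with limma). Atp2a2 had 11842, 11900 and 11250 against 7448, 7972 and 8666 (0.54, SE 0.08, adjusted p = 0.0017), and under CPM scaling it was 0.34 (adjusted p = 0.0498). Both genes were higher in every library of the group, as in WT Cold.

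Alpl had 1133, 1227 and 1129 normalized counts in the libraries labelled as GCN2 KO Cold against 534, 740.1 and 764 in WT RT (log2 fold change 0.79, SE 0.14, adjusted p = 0.0036 with limma). With all 3 groups in the limma fit, which used CPM in place of these normalized counts, it was 0.59 (adjusted p = 0.0607). Gatm had 131, 92.4 and 105 against 201, 178 and 154 (-0.70, SE 0.19, adjusted p = 0.0231). Leaving out GCN2 KO Cold B, GCN2 KO Cold C, WT RT A or WT RT B raised the adjusted p of Gatm to 0.0651, 0.0566, 0.0863 and 0.0667. Gamt (-0.26, adjusted p = 0.275), Slc6a8 (0.35, adjusted p = 0.214) and Ryr2 (-0.27, adjusted p = 0.555) did not pass, and for each of them the groups overlapped.

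The counts of the further lists in this comparison stand beside 34.2% of all genes that passed. Of 9 creatine kinase and supply genes 2 rose, Phospho1 (0.85, adjusted p = 0.0075) and Mat2a (0.82, adjusted p = 0.002), and 2 fell, Ckmt2 (-1.77, adjusted p = 0.022) and Ckm (-1.61, adjusted p = 0.0401). The fall of Ckmt2 and Ckm was no longer called without WT RT A, WT RT B or WT RT C, where the count of the list was 2. Of 12 SERCA partners and store genes 4 fell and 0 rose, led by Sln (-2.0035, adjusted p = 0.0095), Hrc (-1.78, adjusted p = 0.0117) and Casq1 (-1.76, adjusted p = 0.029). Of 19 release genes 8 fell and 0 rose, led by Ryr1 (-1.93, adjusted p = 0.0118), Camk2a (-1.74, adjusted p = 0.0116) and Trdn (-1.71, adjusted p = 0.0287), all with limma. In the same comparison 19 of 20 muscle markers fell (list median -1.69 on the log2 scale), and the part of muscle in these counts was not tested. Of 16 plasma membrane genes 1 rose and 3 fell (2 in all without WT RT A), led by Cacna1s (-2.03, adjusted p = 0.0197), Slc8a3 (-1.63, adjusted p = 0.0064) and Slc8a1 (-0.97, adjusted p = 0.0193). Of 10 mitochondrial genes 3 rose and 3 fell, led by Mcub (-1.73, adjusted p = 0.0111), Slc8b1 (-0.75, adjusted p = 0.0086) and Mcur1 (0.58, adjusted p = 0.0026), all with limma.

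**Figure D5:**
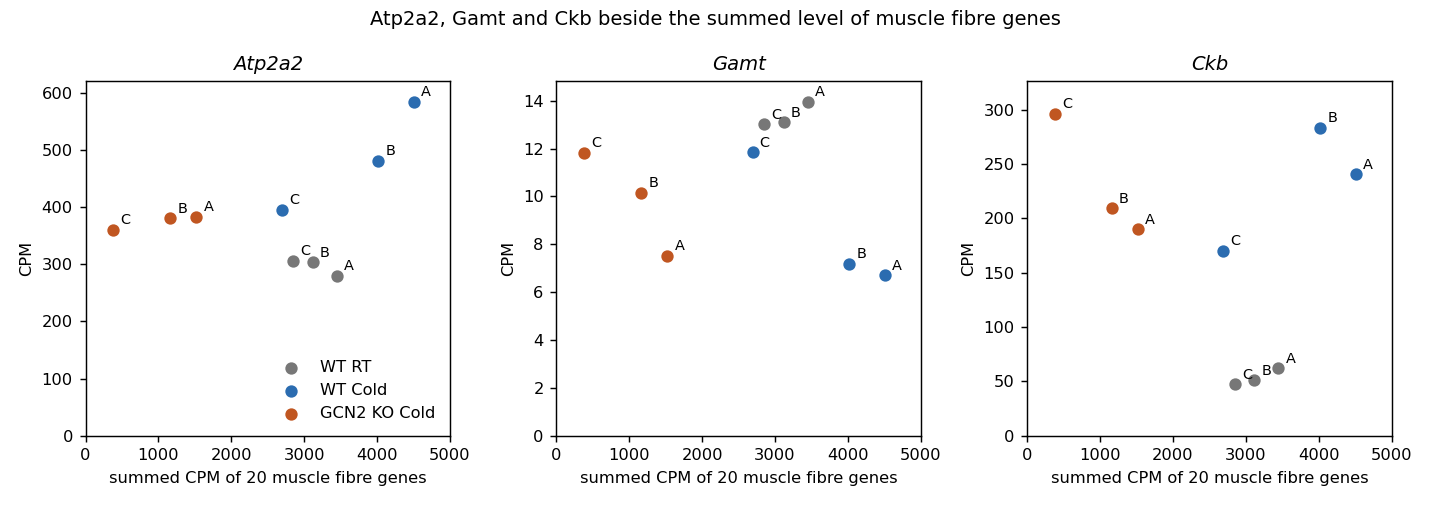
Atp2a2, Gamt and Ckb (vertical, CPM) against the summed CPM of 20 muscle fibre genes (horizontal) in the 9 libraries, with the library letter beside each point and linear axes from 0. In WT Cold, Atp2a2 is highest and Gamt lowest where muscle genes are highest, and the libraries labelled as GCN2 KO Cold hold the fewest muscle genes with Atp2a2 between 360.1 and 383 CPM, above WT RT.

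The order of the 7 genes by level differed between the groups, apart from Gatm and Ryr2, which came last in each. In WT RT, per kb of transcript, Atp2a2 stood at 66.1 ± 3.20 CPM, Ckb at 36.4 ± 5.12, Gamt at 13.5 ± 0.521 and Slc6a8 at 10.1 ± 2.43 (SD, n = 3). Alpl at 9.95 ± 1.73 overlapped with Slc6a8, and Gatm at 2.76 ± 0.445 and Ryr2 at 0.253 ± 0.0735 lay apart below. In WT Cold, Ckb at 157 ± 38.8 and Atp2a2 at 108 ± 21.1 CPM per kb overlapped, as did Slc6a8 at 14.3 ± 2.999 with Alpl at 10.9 ± 3.39 and Alpl with Gamt at 8.68 ± 2.87. Gatm at 1.55 ± 0.171 and Ryr2 at 0.157 ± 0.0339 came last. In the libraries labelled as GCN2 KO Cold, Ckb at 158 ± 38.5 was apart from Atp2a2 at 83.5 ± 2.82, followed by Alpl at 14.8 ± 0.659, Slc6a8 at 11.1 ± 2.69, Gamt at 9.95 ± 2.20, Gatm at 1.47 ± 0.273 and Ryr2 at 0.183 ± 0.0715 CPM per kb. Slc6a8 and Gamt overlapped in this group. Gamt stood 4.98 ± 0.705, 5.53 ± 1.27 and 7.04 ± 2.37 times above Gatm in WT RT, WT Cold and GCN2 KO Cold. These orders depend on the transcript length used. With the longest transcript of any kind in place of the longest coding one, Ckb stood at 0.954 rather than 1.45 times Atp2a2 in WT Cold.

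The genes whose levels followed each of the 7 most closely over the 9 libraries were searched among 14041 genes with Pearson's r on log2(CPM + 0.1). The libraries share the step between room temperature and cold, so a high r can come from that step alone, and r is given as a description. For Ckb these were Naa20 (r = 0.996), Dus1l (0.993) and Prelid3b (0.991), and for Atp2a2 Ap1g1 (0.990), Senp3 (0.984) and Zdhhc5 (0.982). For Gatm they were Arpin, Sgce and Cbr1 (0.981 to 0.975), for Gamt Sec16b, Tiam1 and Scnm1 (0.992 to 0.982) and for Slc6a8 Cobl, Gna14 and Fzd5 (0.979 to 0.974). Alpl and Ryr2 had looser matches. They were 4732491K20Rik, AC160562.1 and Dld for Alpl (0.873 to 0.871) and Ppcdc, Galt and Tdp2 for Ryr2 (0.926 to 0.892).

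Promoter windows of the genes that passed the test are shown so that the region before each start can be read beside the values. RefSeq windows (GRCm38.p6, 250 bases before to 50 bases after the start) were held for Ckb, Gatm and Alpl, and none was used for Atp2a2. Each is printed 5′ to 3′ on the strand of the gene, the minus strand, in lower case, and capitals mark matches to CCAAT and TATAAA, the letters of common promoter boxes, and to TGACG, the core of the cAMP response element.
Ckb, chr12:111672289-111672588: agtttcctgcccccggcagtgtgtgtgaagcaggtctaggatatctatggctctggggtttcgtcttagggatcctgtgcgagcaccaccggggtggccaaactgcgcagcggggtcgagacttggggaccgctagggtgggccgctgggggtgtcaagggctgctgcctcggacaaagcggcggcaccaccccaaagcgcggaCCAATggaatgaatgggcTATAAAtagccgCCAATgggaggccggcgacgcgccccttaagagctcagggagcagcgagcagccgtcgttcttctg
Gatm, chr2:122611228-122611527: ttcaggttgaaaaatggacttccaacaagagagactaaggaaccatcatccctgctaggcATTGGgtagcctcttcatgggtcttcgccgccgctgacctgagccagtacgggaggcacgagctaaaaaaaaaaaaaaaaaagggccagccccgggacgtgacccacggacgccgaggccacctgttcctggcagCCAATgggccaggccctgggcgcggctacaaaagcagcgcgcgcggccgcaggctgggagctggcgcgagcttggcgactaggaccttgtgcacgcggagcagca
Alpl, the first of 2 listed starts, chr4:137766426-137766725: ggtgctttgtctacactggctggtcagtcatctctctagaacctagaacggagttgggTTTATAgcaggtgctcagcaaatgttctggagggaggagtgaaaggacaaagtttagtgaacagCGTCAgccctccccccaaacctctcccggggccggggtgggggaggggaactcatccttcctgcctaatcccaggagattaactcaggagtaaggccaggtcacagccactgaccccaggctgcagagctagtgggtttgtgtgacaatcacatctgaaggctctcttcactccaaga
The Ckb window held CCAAT 46 and 16 bases before the start and TATAAA 28 bases before it. The Gatm window held CCAAT 55 bases before the start and its reverse complement 190 bases before it. The Alpl window held the reverse complement of TATAAA 192 bases before the start. That of TGACG lay 128 bases before the start, and the window of its other start held no match. The full cAMP response element TGACGTCA was in none of these windows. On either strand, CCAAT was in 37.4%, TATAAA in 13.6%, TGACG in 20.8% and TGACGTCA in 1.79% of 32851 windows of the same length. A match in letters is no evidence of binding, and no binding was measured here.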

How the data were processed

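BAT from 9 mice was sequenced as poly(A)-selected paired-end RNA. The authors trimmed reads with Trimmomatic (0.36), aligned them with STAR (2.5.2b), counted unique exonic reads with featureCounts (Subread 1.5.2) and tested with DESeq2. The build in the submitters' processing notes is GRCm39. The deposited signal values, in 3 tables of 2 groups, are read counts divided by a size factor per library and table, and all values (100%) came out as whole reads within 0.01 when this factor was undone. Columns with the authors' own fold changes and p-values were not used.

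Normalized counts were tested as log2(value + 1), computed from the deposited values, with limma (3.58.1, trended empirical Bayes), 2 groups per table, as the unit needs. DESeq2 (1.42.0) and edgeR (4.0.16) on recovered reads, other pseudocounts, a filter at a mean of 50, CPM scaling, all 3 groups in the fit, no trend and each library left out were alternatives. The fit with all 3 groups also used CPM scaling, on the 16006 genes listed in all 3 tables. The limma, DESeq2 and edgeR fits of 2 groups were tested on simulated data. The other steps were not tested in this way. CPM per kb used the longest protein-coding transcript of GENCODE M21 (GRCm38, another build than that of the files). Libraries are lettered by their codes, which carry no mouse number. The p-values measure only the spread between these samples, which per the study come from different mice. A part of that spread may be technical. The 7 genes and all lists were chosen with earlier results of these data known. By rule the text could name the 7, the 3 largest changes past the test of each list in each comparison, and a fixed set of paralogs and regulators. Library totals were 27058799 to 30768064 reads.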

Additional observations from a re-analysis of the deposited data

How the results depend on the processing

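No paired analysis was possible because the library columns carry no replicate numbers that are shared between groups. Over the 7 genes, 3 comparisons and 14 alternatives, 273 values kept direction and side of the threshold, 9 lost the call, 5 gained it and 7 changed sign. The sign changes were all in GCN2 KO Cold over WT Cold, where no gene of the 7 was called. When 1 library was left out, Ckb ranged from -0.071 to 0.29 (below 0 without WT Cold C or GCN2 KO Cold C), Gatm from -0.10 to 0.15 (below 0 without WT Cold A or GCN2 KO Cold A) and Ryr2 from -0.0037 to 0.47 (below 0 without GCN2 KO Cold C). Gatm was -0.081 under CPM scaling and with all 3 groups in the fit. The number of the 7 that passed in WT Cold over WT RT was 3, with a range of 2 to 5 when 1 library was left out (5 without WT Cold C), and 4 against WT RT in the libraries labelled GCN2 KO Cold (3 to 4). With a fold threshold as well, it was 1 in each.

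Over all genes, 4624 passed in WT Cold over WT RT (2907 to 5679 when 1 library was left out, 1357 with the fold threshold) and 5657 in GCN2 KO Cold over WT RT (4220 to 5261, 1754 with it). In GCN2 KO Cold over WT Cold 66 passed, 526 with DESeq2, 6 without the trend, 416 with all 3 groups, 42 with the fold threshold and 3 to 24 when 1 library was left out. The cause was not tested. CPM scaling moved the median log2 fold change of all genes from 0.00 to -0.08, from -0.0031 to -0.12 and from 0.01 to -0.19 in WT Cold over WT RT, GCN2 KO Cold over WT Cold and GCN2 KO Cold over WT RT. The share of higher calls went from 49.0% to 35.1%, from 43.9% to 15.1% and from 48.0% to 23.6%. With the longest transcript of any kind, an alternative chosen after seeing the data, Ckb stood at 0.363, 0.954 and 1.25 times Atp2a2 per kb in WT RT, WT Cold and GCN2 KO Cold, against 0.554, 1.45 and 1.90.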
